A study of Mus musculus with 23 samples.

Results

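DINCH was compared with its vehicle in TM4 cells, on 8 of the 23 arrays of the study: the 4 arrays titled DINCH and the 4 titled DMSO. The arrays were taken by their titles, and every gene detected on them was described. TM4 is an immortalized mouse Sertoli cell line. Each DINCH culture received 100 µM DINCH for 48 h in 1% DMSO, and each DMSO culture received 1% DMSO alone for the same time. The study also treated TM4 cells with MEHP, DOM, BDB or DOS at the same dose and time, and these groups are used only where DINCH is set beside them. All cultures were of a single cell line that carries no engineered change, and the submitters describe the replicates as biological, so the p-values measure the spread between cultures of that line and not between animals.

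DINCH is the diisononyl ester of cyclohexanedicarboxylic acid, a commercial plasticizer sold in place of phthalates. Sertoli cells are the somatic nurse cells of the seminiferous tubule. They form the blood-testis barrier, feed germ cells with lactate and growth factors, and secrete inhibin and Desert hedgehog. Several nuclear receptors that bind fatty acids, the PPAR family among them, control lipid genes in these cells, and active monoesters of phthalates are known ligands of that family.

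Expression was read on 1-colour Agilent mouse arrays, 1 array for the Cy3-labelled RNA of 1 culture. Values are log2 intensities relative to the 75th percentile of the same array, so that 0 is the level at that percentile, and they are called log2 levels here. That percentile was 204.6 to 292.8 intensity units on the DINCH arrays and 234.1 to 320.4 on the DMSO arrays, and 43.4% to 52.2% and 46.5% to 51.4% of spots were well above background. A difference is DINCH minus DMSO in log2 units, with its standard error (SE) from limma over 4 arrays in each group. A gene was called when its adjusted p was below 0.05 and its change above 1.5-fold. Of 11913 genes tested by their brightest probe, 830 were called (6.97%): 452 were higher (3.79%) and 378 lower (3.17%) under DINCH. The median fold of the called genes was 1.71, and the median SE over the tested genes was 0.13. Groups of 4 arrays that do not overlap were common, with every DINCH array above every DMSO array in 11.6% of genes and below in 12.4%.

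**Figure D1:**
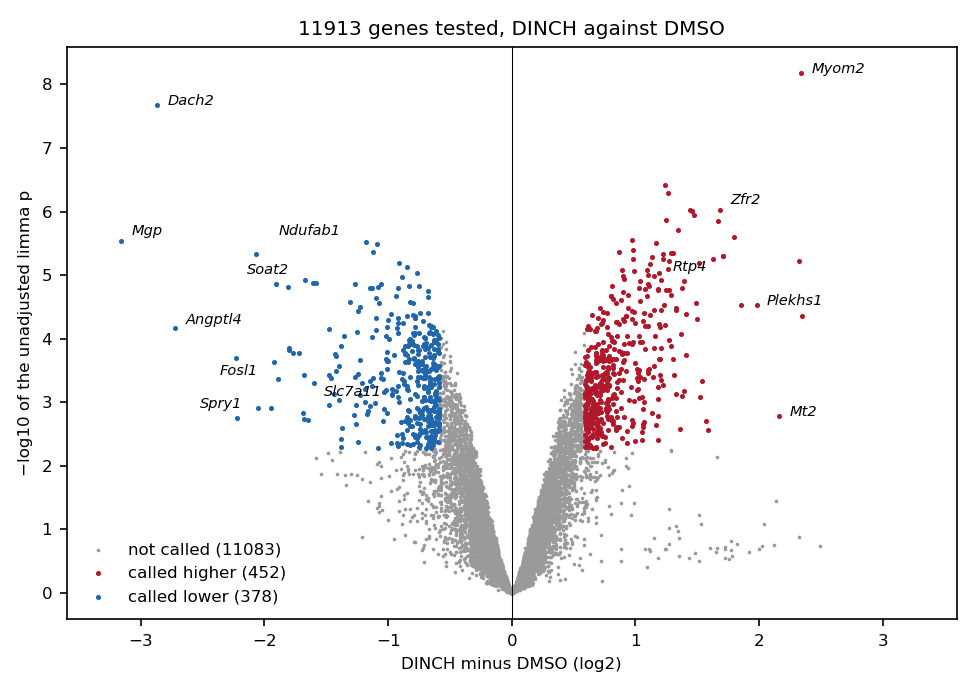
Each point is a tested gene, with the log2 difference between DINCH and DMSO on the x axis and −log10 of the unadjusted limma p on the y axis. Red points are the 452 genes called higher and blue points the 378 called lower, with Myom2, Mgp and Dach2 among those farthest from the bulk.

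The DINCH arrays lay in rows 1 and 3 of their slides and the DMSO arrays in rows 2 and 4, so row and treatment cannot be told apart in this comparison. The 8 arrays were spread over 3 slides that each held both groups, and 829 of the 830 called genes had the same direction on all 3. These genes were called on the same arrays, and 807 of them had non-overlapping groups, which fixes the direction on every slide. The count is therefore not a test of the calls. Replicate 1 stood apart in several genes described here, more often than any other culture. Without replicate 1 of both groups 558 genes were called by any of their probes, against 984 (8.26% of those tested) with it, and for gene groups with at least 4 calls in a direction the count is given without it where it changed by more than 1.5 times. On the array of DMSO replicate 4, 45 genes lay more than 2 log2 units below the other 7 arrays. All 45 spots lay in rows 288 to 316 and columns 105 to 116 of an array with 384 rows and 164 columns. This patch held 78 tested genes, of which 2 were called, and no other of the 8 arrays had more than 5 such low genes.

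Markers of the Sertoli cell were checked against the label. Of 26 Sertoli cell genes on the array, 9 were well above background on all 8 arrays and 11 on none. Gata4, Nr5a1, Dmrt1, Dhh, Inha, Inhbb, Kitl and Ctsl were among those detected, whereas Wt1, Fshr, Shbg, Cldn11, Sox8 and Gdnf were not above background on any array. Fshr encodes the receptor for follicle-stimulating hormone, Cldn11 a claudin of the blood-testis barrier and Gdnf a growth factor for germ stem cells. The summed level of the Sertoli genes, in units of the 75th percentile, was 144 to 196 under DINCH and 142 to 165 under DMSO. The sum is of linear levels, and Ctsl, a lysosomal protease, made up most of it. Its mean log2 level was 7.15 under DINCH and 7.01 under DMSO, and that of the next gene, Inhbb, was 3.23 and 4.11. Markers of other testis cells overlapped between the groups. Germ cell genes summed to 0.621 to 0.78 under DINCH and 0.631 to 0.835 under DMSO, macrophage genes to 3.17 to 4.74 and 2.59 to 5.28, and endothelial genes to 19.2 to 27.7 and 16.4 to 23.3. The macrophage markers Ptprc, Adgre1 and Mrc1 were below background on every array, and 3 of 4 macrophage, 4 of 6 Leydig cell, 2 of 4 endothelial, 3 of 8 germ cell and 1 of 5 peritubular myoid genes were above background on none. Csf1r (macrophage), Cyp17a1 (Leydig cell), Kdr (endothelial), Acta2 (peritubular myoid) and Prm1 (germ cell) were well above background on all 8 arrays. Their mean log2 levels under DINCH were 1.97, 4.01, 4.48, 5.34 and -1.91, and 1.83, 3.68, 4.17, 5 and -1.73 under DMSO. All but Prm1 lay above Gata4 (-0.31 and -0.15), Nr5a1 (-1.31 and -1.33) and Dmrt1 (-1.43 and -1.41). Csf1r and Kdr made up most of the macrophage and endothelial sums. In bulk RNA of a culture, fewer cells of a type and less RNA per cell cannot be told apart.

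Genes induced by interferons were higher under DINCH. Type I interferons act through a receptor that activates a complex with STAT2 and IRF9 as subunits, and this complex binds an element of repeated GAAA cores in the promoters of its targets. Of 40 genes on this list 30 were tested. 16 were called higher and 0 lower, and 17 had every DINCH array above every DMSO array, against 3.79% and 11.6% of all tested genes. Their median difference was 0.69 and that of all tested genes 0, and 29 of the 30 differences were above 0. At an unadjusted limma p below 0.05, 20 members were higher and 0 lower, against 1798 higher and 1873 lower of all 11913 tested genes. With replicate 1 of both groups left out, 11 members were called higher, and 11 without DMSO replicate 3.

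The RefSeq promoters of 3 called members of this list are shown as examples (build GRCm38.p6). Each holds the interferon element at 2 places within 250 bases before the gene start, as does that of Gbp3, a called member not shown. The 3 are Ifit3 (chr19:34583279-34583528, plus strand), Ifit1 (chr19:34640639-34640888, plus strand) and Bst2 (chr8:71537473-71537722, minus strand). Capitals mark matches to a pair of GAAA cores with any 2 bases between them, searched on both strands, and those of Bst2 overlap.
Ifit3: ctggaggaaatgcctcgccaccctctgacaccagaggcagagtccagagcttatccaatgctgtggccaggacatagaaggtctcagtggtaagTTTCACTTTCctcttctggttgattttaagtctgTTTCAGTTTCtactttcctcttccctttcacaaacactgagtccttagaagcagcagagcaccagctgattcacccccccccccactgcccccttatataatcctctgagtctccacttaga
Ifit1: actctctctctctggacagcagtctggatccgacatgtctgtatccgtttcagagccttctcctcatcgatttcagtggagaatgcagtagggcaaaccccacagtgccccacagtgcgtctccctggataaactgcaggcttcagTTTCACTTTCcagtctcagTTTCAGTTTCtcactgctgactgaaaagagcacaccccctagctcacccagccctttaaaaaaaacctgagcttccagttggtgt
Bst2: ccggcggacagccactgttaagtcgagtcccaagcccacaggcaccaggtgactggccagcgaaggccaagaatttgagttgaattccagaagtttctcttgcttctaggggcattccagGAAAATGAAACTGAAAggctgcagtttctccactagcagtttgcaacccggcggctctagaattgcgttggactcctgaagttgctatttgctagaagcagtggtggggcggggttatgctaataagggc
Of the 16 called members 12 had a promoter in the table, and 6 of these held a match, against 2.98% of 32851 promoter windows of the same length and 3.09% of 9540 tested genes with a window. Herc6, Ifit2, Irf7, Oasl1, Oasl2 and Xaf1 had none in this window. A match is a string of letters and not a measured binding site.

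Oasl1, a member of the oligoadenylate synthetase family, had log2 levels of 3.43, 3.23, 2.91 and 3.25 on DINCH replicates 1 to 4 and of 2.32, 1.28, 1.65 and 1.57 on DMSO replicates 1 to 4. The groups did not overlap, and the difference was 1.5 (SE 0.21, adjusted p = 0.00555). Dhx58, which encodes the RIG-I-like receptor LGP2, measured -2.41, -2.04, -2.07 and -1.82 under DINCH and -3.58, -3.52, -3.64 and -3.44 under DMSO. Its difference was 1.46 (SE 0.13, adjusted p = 0.00258), and its levels were low in every culture. Ifit3, an antiviral tetratricopeptide protein, measured -0.19, -0.66, -0.62 and -0.47 under DINCH and -2.13, -1.67, -1.46 and -1.62 under DMSO, a difference of 1.23 (SE 0.16, adjusted p = 0.00462). Its neighbour Ifit3b is a near-identical copy, and a probe may read both.

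Irf7, the transcription factor that amplifies interferon induction, measured -1.39, -1.96, -1.98 and -1.89 under DINCH against -4.14, -3.28, -2.92 and -2.32 under DMSO. The groups were apart, but the DMSO arrays spread over more than the difference of 1.36 (SE 0.33, adjusted p = 0.0339), and the call was kept in 11 of 22 other settings. Rtp4, Usp18, Bst2, Stat2 and Ifit1 are named after their values were seen. Rtp4 measured 1.79, 1.47, 1.35 and 1.73 under DINCH and 0.18, 0.32, 0.50 and 0.47 under DMSO, a difference of 1.22 (SE 0.13). Usp18, which removes the ubiquitin-like ISG15 from proteins and dampens receptor signalling, rose by 1.15, and Bst2, the tether of enveloped virus particles, by 1.02. Stat2, a subunit of the activator itself, rose by 0.98 (SE 0.10, adjusted p = 0.003). Its partner Irf9 had a difference of 0.53 with an adjusted p of 0.0268, which was under 1.5-fold and not called, and Mx1 was not tested.

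**Figure D2:**
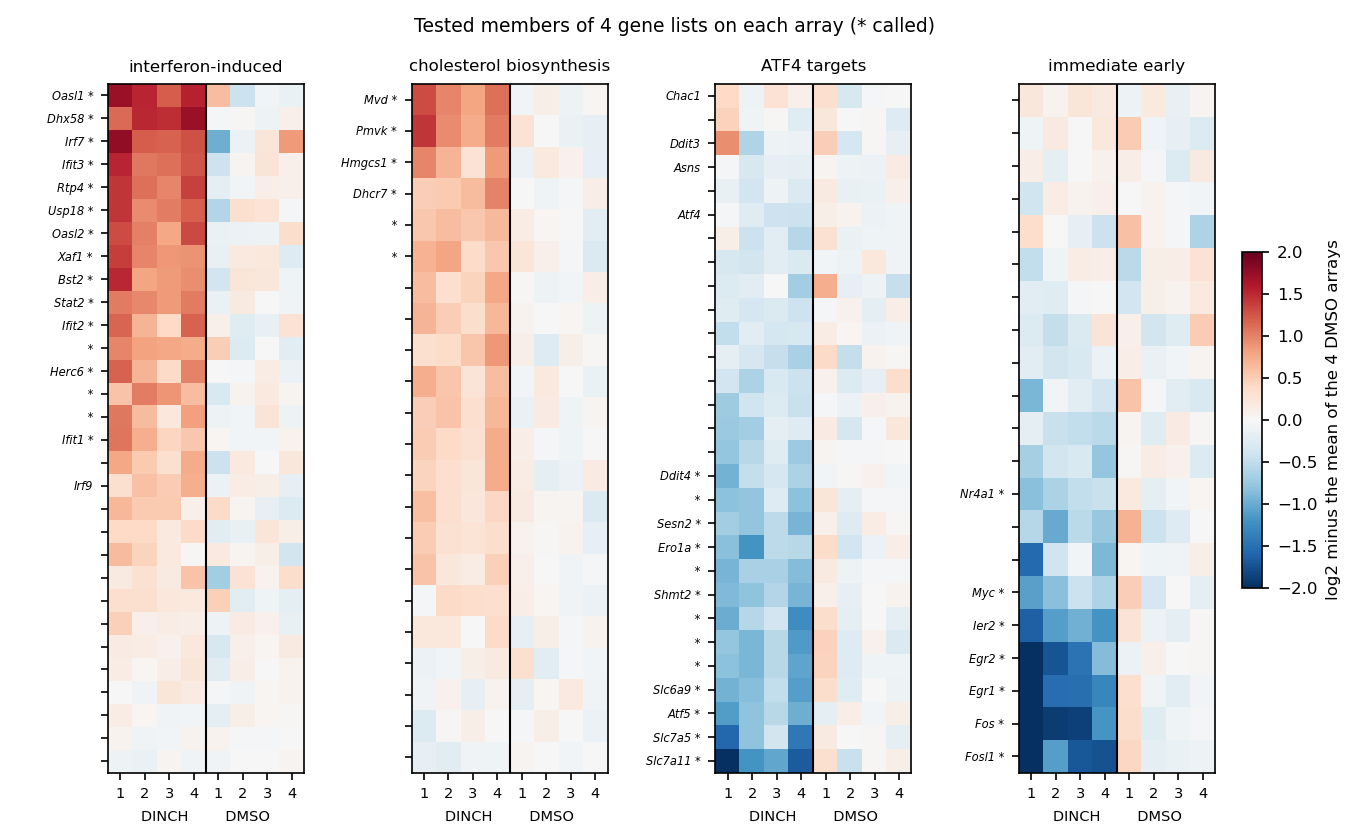
Each cell is the log2 level of a gene on an array minus its mean over the 4 DMSO arrays, for all tested members of the interferon-induced, cholesterol biosynthesis, ATF4 and immediate early lists, with called genes starred and the genes described in the text labelled. The 16 starred interferon genes are red on all 4 DINCH arrays, and replicate 1 of DINCH carries the darkest blue for Slc7a11, Fosl1 and Egr1.

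Targets of ATF4 were lower under DINCH. ATF4 is the transcription factor of the integrated stress response, and it drives amino acid transporters, serine and glycine synthesis and tRNA charging. Of 29 tested members 13 were called lower and 0 higher, against 3.17% of all tested genes called lower. 19 had every DINCH array below every DMSO array, against 12.4%, and the median difference was -0.47. By unadjusted limma p below 0.05, 21 members were lower and 0 higher, against 1873 lower and 1798 higher of all 11913 tested genes. Leaving out replicate 1 of both groups gave 4 members called lower, against 7 without DMSO replicate 3.

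Slc7a11, the cystine and glutamate exchanger, had log2 levels of -2.81, -1.48, -1.32 and -1.94 under DINCH and 0.03, -0.73, -0.26 and -0.17 under DMSO. The groups did not overlap, DINCH replicate 1 was the lowest, and the difference was -1.60 (SE 0.31, adjusted p = 0.0147). Its RefSeq promoter (GRCm38.p6, chr3:50443614-50443863, minus strand) is shown because it is the only one among 11 called members with a window that held TGATGNAA, the core to which ATF4 heterodimers bind. Capitals mark 2 matches, 1 on each strand, and 3.45% of all windows held a match.
Slc7a11: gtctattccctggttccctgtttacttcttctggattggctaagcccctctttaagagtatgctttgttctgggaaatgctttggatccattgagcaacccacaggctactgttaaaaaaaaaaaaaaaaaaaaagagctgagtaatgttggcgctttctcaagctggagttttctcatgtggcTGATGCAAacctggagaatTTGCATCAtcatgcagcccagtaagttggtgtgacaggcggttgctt

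Slc7a5, the light chain of the large neutral amino acid transporter LAT1, measured 2.87, 3.63, 4.08 and 3.02 under DINCH and 4.62, 4.44, 4.46 and 4.25 under DMSO, a difference of -1.04 (SE 0.24, adjusted p = 0.029) on 1 of its 2 tested probes. Atf5, a relative of ATF4, fell by 0.86 and the glycine transporter Slc6a9 by 0.85 (adjusted p = 0.0082 and 0.0154). Sesn2, a leucine sensor of the mTORC1 pathway, fell by 0.73, and Ddit4, an inhibitor of the same kinase complex, by 0.60. Atf4 itself had a difference of -0.28 (adjusted p = 0.164), and the targets Asns, Ddit3 and Chac1 had differences of -0.18, 0.03 and 0.17, none of them called; these 4 were chosen after their values were seen. Of 19 cytosolic aminoacyl-tRNA synthetases 3 were called lower and 0 higher, with a median of -0.32 and 17 differences below 0. Wars fell by 0.84, Yars by 0.81 and Rars by 0.59 (adjusted p = 0.0102, 0.00756 and 0.0347). Among 18 folate and one-carbon enzymes the mitochondrial Shmt2 and Mthfd1l fell by 0.80 and 0.68, and the median was -0.27. Of 17 hypoxia-induced genes 4 were called lower and 0 higher: Ankrd37 by 1.58, Ero1a by 0.78, Vegfa by 0.65 and Ddit4 by 0.60. Ero1a and Ddit4 stand on the ATF4 list too. The count was 1 without replicate 1 of both groups.

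Immediate early genes were lower under DINCH. They encode transcription factors that serum and growth factors induce within minutes through the ERK kinases and serum response factor. Of 21 tested members 7 were called lower and 0 higher, 9 had every DINCH array below every DMSO array, and the median was -0.42. With an unadjusted limma p below 0.05, 12 were lower and 0 higher, against 1873 lower and 1798 higher of all 11913 tested genes. 5 were called without replicate 1 of both groups. Fosl1, an AP-1 subunit, measured -3.33, -1.38, -1.98 and -2.02 under DINCH and 0.13, -0.46, -0.42 and -0.39 under DMSO, a difference of -1.89 (SE 0.36, adjusted p = 0.0137). Egr1, a zinc finger factor, measured 1.68, 2.92, 2.93 and 3.14 under DINCH against 4.78, 4.37, 4.22 and 4.39 under DMSO. It was well above background on all 8 arrays, the groups were apart, and the difference was -1.77 (SE 0.29, adjusted p = 0.00895). Fos and Egr2 were dimmer. Fos was above background on 1 DINCH array and 4 DMSO arrays and had a difference of -1.81 (SE 0.22), which was -0.28 and not called with normexp background correction. That correction adds an offset of 50 to every intensity, which shrinks differences of dim genes. Egr2 measured -4.31, -3.38, -3.13 and -2.52 against -1.77, -1.55, -1.66 and -1.62 (difference -1.68, SE 0.31). Nr4a1 fell by 0.60, and Ier2 and Myc, named after their values were seen, by 1.23 and 0.74.

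Genes that ERK induces to restrain itself were described as a separate list. Of 17 tested 3 were called lower and 0 higher, with a median of -0.40 and 7 members with every DINCH array below every DMSO array. A single member was called without replicate 1 of both groups. Spry1, an inhibitor of receptor tyrosine kinase signalling, measured -2.38, -0.41, -0.13 and -0.21 under DINCH and 0.88, 1.39, 1.52 and 1.30 under DMSO (difference -2.05, SE 0.45, adjusted p = 0.023). DINCH replicate 1 lay far below the other 3, which were themselves below every DMSO array. Etv5, an ETS factor, measured 0.53, 2.27, 2.39 and 1.36 against 3.74, 3.21, 3.33 and 2.88 (difference -1.65, SE 0.39, adjusted p = 0.0285). Errfi1, which binds and inhibits the EGF receptor, fell by 0.62. The dual-specificity phosphatase genes of the same feedback did not pass. Dusp6 had a difference of -0.77 (adjusted p = 0.0522) and Dusp4 of 0.88 (adjusted p = 0.164), both chosen after their values were seen. Of the RAS and MAP kinase cascade itself 7 of 54 genes were called higher and 1 lower, with a median of 0.01. Mras, Mapk12 (p38 gamma), Map4k1 and Rps6ka1 rose by 0.89, 0.79, 0.79 and 0.75, and Mras on 1 of 2 tested probes. Egfr had a difference of 0.36 (adjusted p = 0.111) on its brightest probe, although another of its 3 tested probes was called higher.

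**Figure D3:**
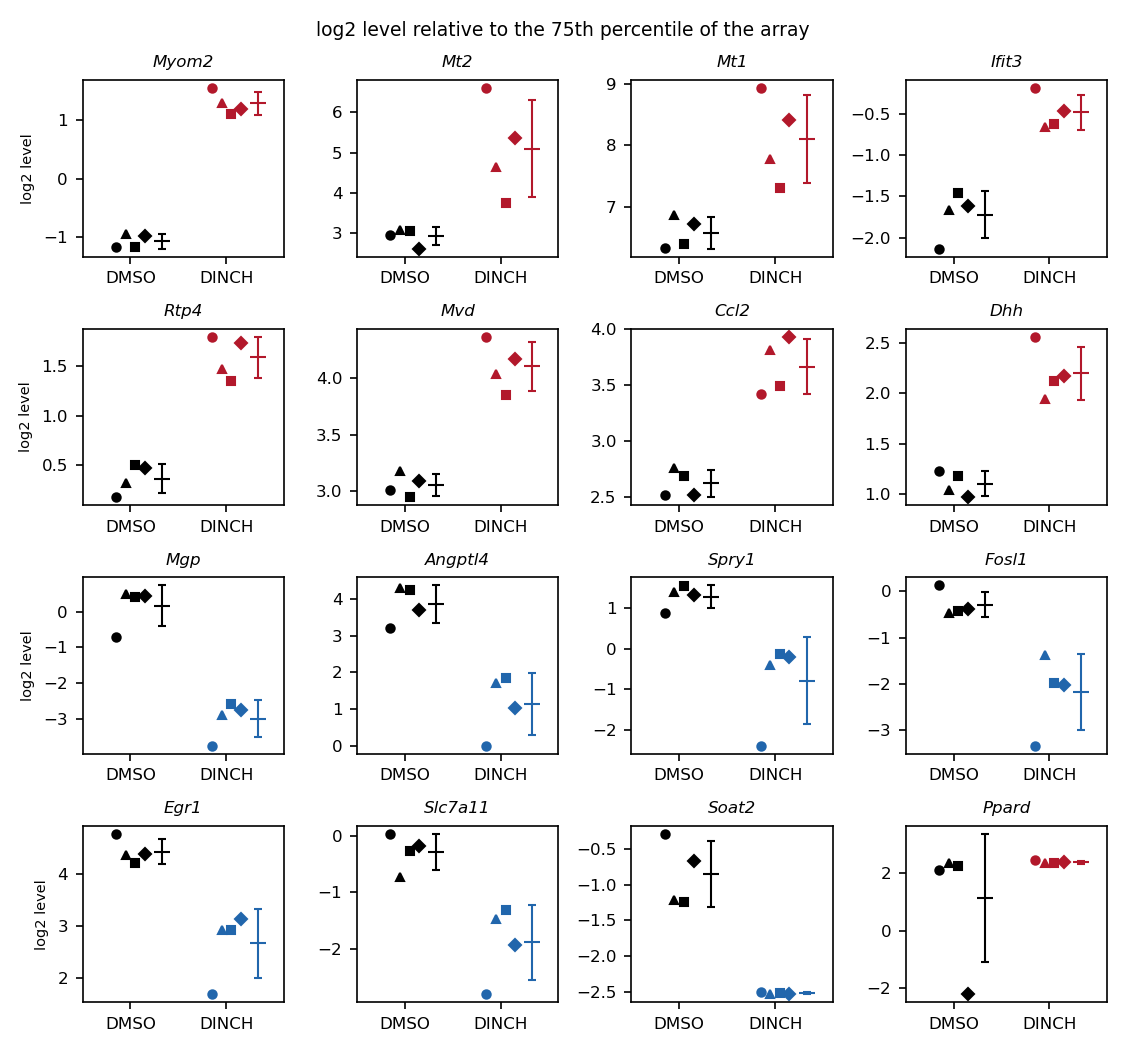
Each panel shows the log2 level of a gene on each array, relative to the 75th percentile of that array, with the replicate number as the symbol (circle 1, triangle 2, square 3, diamond 4) and the mean ± SD of 4 arrays beside it. Of the 16 genes Ppard alone has overlapping groups, with DMSO replicate 4 at -2.22.

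Enzymes of cholesterol synthesis were higher. The pathway runs from acetyl-CoA through mevalonate and squalene to cholesterol, and the sterol-sensing factor SREBF2 drives it. Of 22 tested members 6 were called higher and 0 lower, 16 had every DINCH array above every DMSO array, and the median was 0.50. In limma 16 were higher and 0 lower at an unadjusted p below 0.05, against 1798 higher and 1873 lower of all 11913 tested genes. Omission of replicate 1 of both groups, or of DMSO replicate 3, left 3 called. Both enzymes that carry mevalonate phosphate to isopentenyl diphosphate led the list. Mvd measured 4.36, 4.03, 3.85 and 4.16 under DINCH and 3.01, 3.18, 2.95 and 3.09 under DMSO, and Pmvk 6.35, 5.86, 5.66 and 5.96 against 5.21, 4.93, 4.78 and 4.75. Each rose by 1.04 (SE 0.12 and 0.16), and neither pair of groups overlapped. Hmgcs1, the synthase at the entry to the pathway, rose by 0.70 and Dhcr7, which makes the last step to cholesterol, by 0.65. Of 16 genes of sterol sensing, uptake and efflux, Insig1, which holds the SREBF complex in the endoplasmic reticulum, was the single call (0.64, adjusted p = 0.0198), with a median of 0.06. Soat2, which esterifies cholesterol for storage, measured -2.50, -2.54, -2.52 and -2.53 under DINCH and -0.29, -1.21, -1.24 and -0.67 under DMSO. It fell by 1.67 (SE 0.20, adjusted p = 0.00363), with nearly equal values on the 4 DINCH arrays.

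PPAR targets did not move together: of 24 tested 1 was called higher and 1 lower, with a median of 0.05. Angptl4, a secreted inhibitor of lipoprotein lipase, measured 0.00, 1.70, 1.85 and 1.03 under DINCH and 3.21, 4.30, 4.25 and 3.71 under DMSO. It fell by 2.72 (SE 0.40, adjusted p = 0.00623), and DINCH replicate 1 and DMSO replicate 1 were each the lowest of their group. Pdk4, the kinase that shuts pyruvate dehydrogenase, measured 0.34, -0.62, -0.71 and 0.02 against -1.47, -1.47, -1.54 and -1.30 and rose by 1.20 (SE 0.22, adjusted p = 0.0129). These 2 standard PPAR targets thus moved in opposite directions. The receptors Ppara and Pparg had differences of 0.06 and 0.01 (adjusted p = 0.788 and 0.984) with overlapping groups. Ppard measured 2.44, 2.33, 2.33 and 2.37 under DINCH and 2.12, 2.36, 2.24 and -2.22 under DMSO; its spot on DMSO replicate 4 lay in the patch of low spots, and without that value the difference was 0.13 in place of 1.24 (adjusted p = 0.501). Among their partners Ppargc1a, the coactivator of mitochondrial biogenesis, rose by 1.21 (SE 0.20, adjusted p = 0.00848) and the heterodimer partner Rxra by 0.92 (SE 0.13, adjusted p = 0.00537; 1 of 2 tested probes). In glycerolipid synthesis Dgat2, which makes triacylglycerol, fell by 1.31 (SE 0.17), while Mogat2, which makes diacylglycerol, and the phosphatidate phosphatase Lpin1 rose by 1.17 and 1.11 (SE 0.12 and 0.20). Of 13 retinoid genes 2 were called higher, Aldh1a1, a retinaldehyde dehydrogenase, by 1.33 and Rdh11 by 0.83.

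Metallothioneins, small cysteine-rich proteins that bind zinc and copper, were higher and varied between the cultures. Mt2 measured 6.60, 4.63, 3.76 and 5.37 under DINCH and 2.96, 3.08, 3.06 and 2.62 under DMSO (difference 2.16, SE 0.49, adjusted p = 0.0269). Mt1 measured 8.93, 7.77, 7.30 and 8.41 against 6.33, 6.87, 6.39 and 6.72 (difference 1.52, SE 0.31, adjusted p = 0.019). The cultures kept the same order in both genes under DINCH, with replicate 1 the highest and replicate 3 the lowest, and every DINCH array was above every DMSO array. Neither gene was called without replicate 1 of both groups or without DMSO replicate 3. No zinc transporter of the same list was called, and the median of its 22 tested members was 0.04. Of 18 glutathione transferases 5 were called higher and 0 lower, with a median of 0.26, and 3 without replicate 1 of both groups or without DMSO replicate 3. Gsto2 rose by 1.12 (SE 0.12), Gstt1 by 0.90, Gsta4 by 0.79 and Gstm1 by 0.70, the last on both of its probes. NRF2 targets as a whole had a median of 0.02, with Nqo1, a quinone reductase, called higher (0.85, adjusted p = 0.0145) and Slc7a11 and the exporter Abcc4 (-0.64) called lower among 30.

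Among genes above background on at least 3 arrays of each group, the largest fall was in Mgp, the matrix Gla protein that inhibits calcification. It measured -3.75, -2.90, -2.59 and -2.75 under DINCH and -0.70, 0.49, 0.42 and 0.43 under DMSO, and the difference was -3.16 (SE 0.32, adjusted p = 0.003). Replicate 1 was the lowest in both groups, and the groups were far apart. Other matrix genes that fell were Ccn4 by 1.40 on both of its probes and Fbn1 (fibrillin) by 1.26. Aspn (asporin) had a difference of -1.72 and was called, but it was above background on 1 DINCH array and 4 DMSO arrays, and its difference was -0.33 and not called with normexp background correction, whose offset shrinks differences of dim genes. Of 34 matrix proteins other than collagens 5 were called lower and 2 higher, and the median was 0.00. Without replicate 1 of both groups 6 were called lower and 0 higher. Of 21 collagens Col8a1 and Col5a3 fell by 1.07 and 0.92, Col11a1 rose by 0.76, and the median was -0.23. The aggrecanase Adamts5 rose by 1.18, while Serpinf1 fell by 0.60. Of 22 contractile genes 1 was called higher and 1 lower, with a median of 0.12. Myom2, an M-band protein of the sarcomere, rose, and Myl4, a myosin light chain, fell by 1.25 (SE 0.19). Myom2 measured 1.54, 1.28, 1.1 and 1.19 under DINCH and -1.17, -0.94, -1.17 and -0.98 under DMSO, a difference of 2.34 (SE 0.12, adjusted p = 0.000159). It was the largest rise among genes above background on at least 3 arrays of each group, and its call was kept in all 22 other settings.

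Some genes of Sertoli cells and of cell junctions were higher. Dhh, the hedgehog ligand that Sertoli cells send to Leydig cells, measured 2.56, 1.94, 2.12 and 2.17 under DINCH and 1.23, 1.04, 1.18 and 0.97 under DMSO (difference 1.09, SE 0.14, adjusted p = 0.00409). Inha, the inhibin alpha subunit, rose by 0.64 (SE 0.15, adjusted p = 0.0276), while the beta subunit Inhbb had a difference of -0.88 that was not called (adjusted p = 0.0983, overlapping groups). Of 11 tested Sertoli genes 2 were called higher and 0 lower, with a median of -0.01, and with the replicate number as a block 2 were called higher and 1 lower. Cgn, cingulin of the tight junction plaque, measured 1.07, 0.58, 0.64 and 0.75 against -0.56, -0.71, -0.83 and -0.62 and rose by 1.44 (SE 0.13, adjusted p = 0.00258). Cdh13, a cadherin, rose by 0.61, and 3 of 24 junction genes were called higher and 0 lower, with a median of -0.08. The block gave 3 higher and 1 lower. The ephrin ligands Efnb2 and Efnb3 fell by 1.61 and 0.87 (SE 0.19 and 0.17), the 2 calls among 15 ephrins and Eph receptors.

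Secreted signals moved in both directions. Of 26 Wnt and Notch genes 4 were called higher and 0 lower, and all 4 were Wnt ligands: Wnt4 by 1.24, Wnt6 by 1.16, Wnt10a by 0.97 and Wnt7b by 0.64. Wnt6 measured -0.30, -0.36, -0.67 and -0.49 under DINCH and -1.37, -1.51, -1.43 and -2.15 under DMSO, with no overlap, whereas Wnt4 was above background on only 2 DMSO arrays. The median of the list was 0.05. With the replicate number as a block 5 members were called higher and 2 lower, and with the slide as a block 6 and 3. Without replicate 1 of both groups the counts were 3 and 1. Among 21 VEGF, FGF, PDGF and EGF ligands 5 were called higher, with Fgf10 at 1.17 and Vegfc and Vegfd at 0.87 each, and 4 lower, with Fgf7 at -0.84. When replicate 1 of both groups was left out these counts were 3 and 1. Vegfa (-0.65, adjusted p = 0.0499) had overlapping groups, and with the patch of low spots left out its adjusted p was 0.0925. Of 38 TGF-beta, activin and BMP genes 2 were called higher (5.26%) and 3 lower (7.89%), against 3.79% and 3.17% of all tested genes. The BMP antagonist Grem1 fell by 1.24, the inhibitory Smad7 by 0.84 and the BMP target Id1 by 0.79, while Tgfb2 rose by 0.74. The monocyte chemoattractants Ccl2 and Ccl7 rose. Ccl2 measured 3.42, 3.81, 3.49 and 3.93 against 2.52, 2.76, 2.69 and 2.52 (difference 1.04, SE 0.14, adjusted p = 0.00456) and Ccl7 rose by 1.13 (SE 0.12). Of 26 chemokines and inflammatory genes 6 were called higher and 1 lower, the acute phase gene Saa3, by 1.21. Igfbp4 and Irs1 fell by 0.88 and 0.65 among 12 genes of the insulin-like growth factor system.

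The circadian clock list had 4 genes called higher and 1 lower of 18, with a median of 0.04. Dbp, an output factor of the clock, rose by 1.39 on both of its probes, Per1 by 1.18 and Bhlhe41 by 1.01. Per1 measured 3.73, 3.20, 3.37 and 3.6 under DINCH and 2.08, 2.21, 2.39 and 2.52 under DMSO, and the groups did not overlap. Arntl (BMAL1), the activator of Dbp and Per1, fell by 0.66 (adjusted p = 0.0264) and was named after its value was seen. Without replicate 1 of both groups 2 of the 18 were called higher. Of 38 lysosomal genes 5 were called higher and 0 lower, led by the sialidase Neu1 (1.1, SE 0.20) and including Tfeb, the transcription factor of lysosomal genes (0.73, SE 0.12). Without replicate 1 of both groups 1 lysosomal gene was called. Of 24 cytosolic heat shock genes 3 were called higher, the small heat shock proteins Hspb2 by 1.33 (SE 0.18) and Cryab by 1.07 (SE 0.23) and Hspa4l by 0.77, and the median was 0.04.

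Several housekeeping lists held no call. Of 78 ribosomal protein genes, 32 proteasome subunits, 40 mitosis genes and 16 BCL2 family genes, 0 were called in either direction, with medians of 0.10, -0.11, 0.06 and -0.02. At an unadjusted limma p below 0.05, 1 ribosomal protein gene and 7 mitosis genes were higher and 0 lower, and 6 proteasome subunits and 2 BCL2 family genes were lower and 0 higher. Of all 11913 tested genes 1798 were higher and 1873 lower at that p. The mitosis count of higher genes and the proteasome and BCL2 counts of lower genes are near those shares. The counts of 0 in the other direction are below them. No ribosomal protein difference exceeded 0.29 in size. Of 50 DNA replication genes the flap endonuclease Fen1, the helicase subunit Mcm2 and the licensing factor Cdc6 fell by 0.86, 0.77 and 0.67, with a median of -0.13. Of 67 respiratory chain subunits 1 was called, Ndufab1, the acyl carrier protein of mitochondria, which fell by 1.18 (SE 0.12, adjusted p = 0.003) and whose groups did not overlap. Of 34 glycolysis genes 2 were called higher (5.88%) and 1 lower (2.94%), near the 3.79% and 3.17% of all tested genes. Eno2 rose by 0.70 and Pfkl fell by 0.67, and the median of the 34 was -0.07. Ddb2, a damage recognition factor, rose by 1.09 (SE 0.12) and was the 1 p53 target called higher of 23, with Sesn2 lower. Glucocorticoid-induced genes had 3 called higher (Mt2, Per1 and Cebpd) and 2 lower (Errfi1 and Ddit4) of 11, with a median of 0.19. Of 27 endoplasmic reticulum chaperones and sensors 1 was called, Ern1, the sensor IRE1, which fell by 0.65, and the median was 0.15. Psmb8, an immunoproteasome subunit, was the single call among 18 genes of MHC class I presentation and rose by 0.71. Hprt, a common reference gene, had a difference of -0.22 (adjusted p = 0.263).

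Further large rises lay outside the lists. Ngef, a guanine nucleotide exchange factor, rose by 1.71 (SE 0.18), Sema3b, a secreted semaphorin, by 1.63 (SE 0.18), Adssl1, an adenylosuccinate synthase, by 1.71 (SE 0.18) and Cbr2, a carbonyl reductase, by 1.49 on both of its probes. Zfr2, Hrct1, Dennd3, Bbof1 and Sh3tc1 rose by 1.68, 1.80, 1.67, 1.51 and 1.47, and Plekhs1 by 1.98 (SE 0.26). Among falls, Mn1, a transcriptional coregulator, decreased by 1.95 (SE 0.43), Mamdc2 by 1.91 (SE 0.23), Il34, a ligand of the CSF1 receptor, by 1.80 (SE 0.29) and Mir17hg, the host transcript of a microRNA cluster, by 1.69 (SE 0.38). Some called genes were not above background on any array of a group, and their fold is given as a bound, the mean of the brighter group against the lowest level measured well above background on the dimmer arrays. Dnaaf3, an assembly factor of axonemal dynein, was at least 3.0-fold higher under DINCH (adjusted p = 0.00537), Mfsd13b at least 1.90-fold and Il2rb at least 1.83-fold. Dach2, a transcriptional cofactor, was at least 2.13-fold lower (adjusted p = 0.000249), D030028A08Rik at least 1.81-fold, Utp18 and Asf1a at least 1.47-fold each and Gm12359 at least 1.42-fold. These bounds hold for the main values only, and every gene had a smaller difference in some other setting. The smallest differences were 0.55 for Dnaaf3, 0.31 for Mfsd13b and 0.46 for Il2rb. For the falls they were -0.42 (Dach2), -0.17 (D030028A08Rik), -0.1 (Utp18), -0.11 (Asf1a) and -0.18 (Gm12359). The Utp18 call was kept in 7 of 22 other settings. Mamdc2 and Dach2 were also called lower than DMSO under MEHP (-2.45 and -2.63) and DOM (-2.63 and -2.73). Under BDB (-1.12 and -1.49) and DOS (-2.07 and -1.25) their differences were below 0 and not called. By class, 440 of 11696 protein-coding genes were called higher and 364 lower, and of 129 long non-coding RNAs 11 were called each way.

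Counts in several groups with few calls changed when cultures were left out. Without replicate 1 of both groups 1 DNA replication gene and 1 folate gene were called lower, as without DMSO replicate 3. Leaving out replicate 1 of both groups also gave 0 TGF-beta, activin or BMP genes called higher and 3 lower, and 1 Sertoli gene called each way. Further calls were lost without replicate 1 of both groups, without DINCH replicate 1 and without DMSO replicate 3. These were the lower calls among glucocorticoid-induced genes and all calls in glycolysis. The single calls among sterol sensing, endoplasmic reticulum chaperone and MHC class I genes were lost there too. All of these were also lost without a filter on dim probes and with detection on 1 array. Normexp background correction ended the sterol sensing and MHC class I calls, and the slide as a block ended the chaperone call. Without DMSO replicate 3 alone, 0 ERK feedback genes were called, and 1 heat shock gene and 1 junction gene were called higher, and 1 hypoxia-induced gene, 1 growth factor ligand and 2 matrix proteins other than collagens lower.

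**Figure D4:**
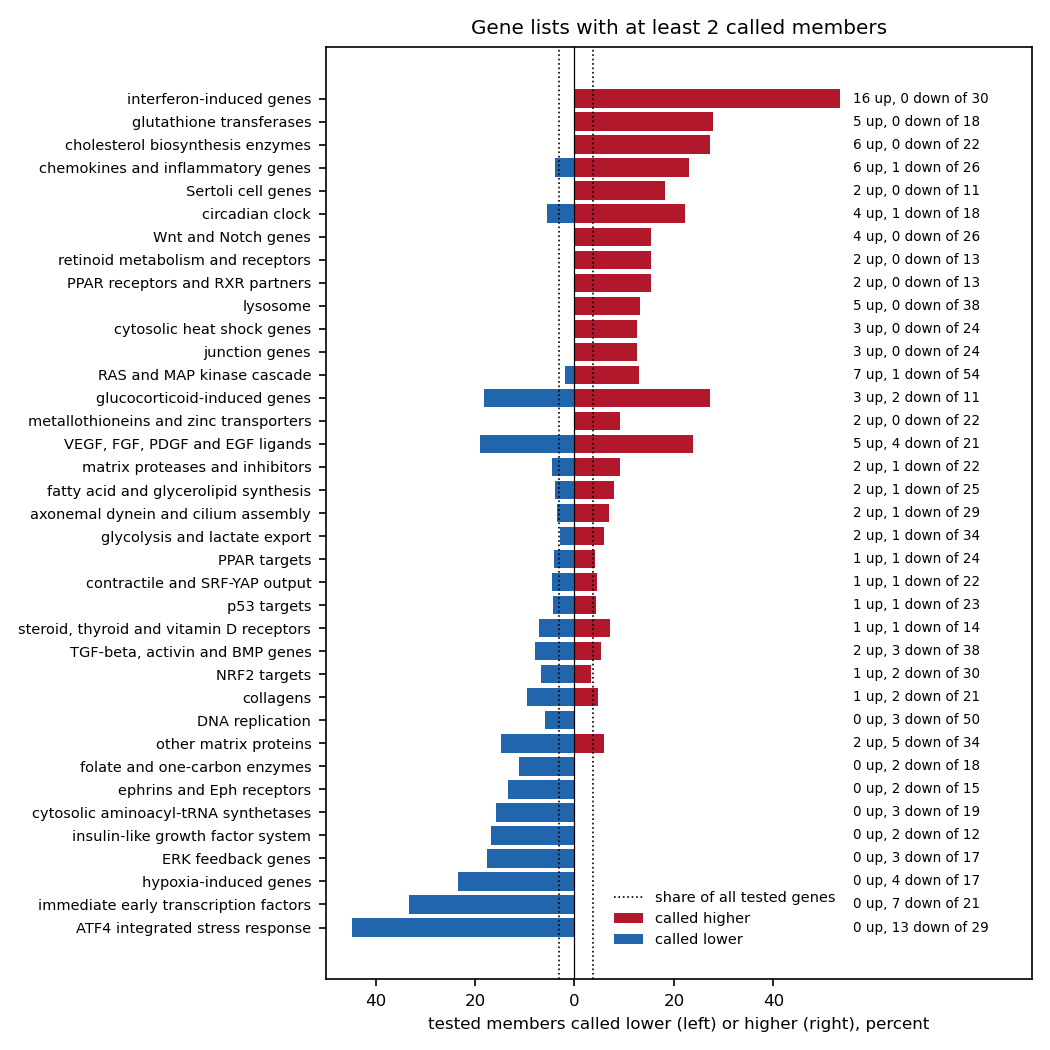
Bars give the percent of tested members called higher (right, red) or lower (left, blue) for gene lists with at least 2 called members, with counts at the right and dotted lines at the share of all tested genes, 3.79% higher and 3.17% lower. Interferon-induced genes extend farthest right, with 16 of 30, and ATF4 targets farthest left, with 13 of 29.

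DINCH was then set directly against the other compounds, at the same 100 µM and 48 h. MEHP is a phthalate monoester with a free acid, DOM is a diester of maleic acid with an unsaturated bond, and BDB is a dibenzoate; DINCH is a diester on a saturated ring. DOS was not set against DINCH here. These 3 comparisons do not use the DMSO arrays, but they share the 4 DINCH arrays, and p-values were adjusted over all 3 together. By any probe 414 genes differed from MEHP (3.5%), 2651 from DOM (22.3%) and 1187 from BDB (9.97%). The BDB and MEHP arrays lay in rows 1 and 3 of the slides, like those of DINCH, and the DOM arrays in rows 2 and 4. Interferon-induced genes were higher under DINCH than under each of these 3 compounds: 22 of 31 tested members were called against BDB, 21 of 30 against DOM and 21 of 30 against MEHP, with 0 lower, where 4.91%, 10.2% and 1.54% of all tested genes were called higher. The median differences were 1.00, 1.38 and 1.11. Immediate early genes were lower in 10 of 21 against BDB, 9 of 21 against DOM and 8 of 21 against MEHP, against 4.05%, 9.46% and 1.49% of all tested genes, with 0 higher in each. ATF4 targets were lower in 12 of 30 against BDB and 6 of 29 against MEHP, but 8 of 29 were higher and 1 lower against DOM. Cholesterol enzymes were higher in 6 of 22 against BDB, lower in 9 of 22 against DOM and lower in 2 of 22 against MEHP.

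**Figure D5:**
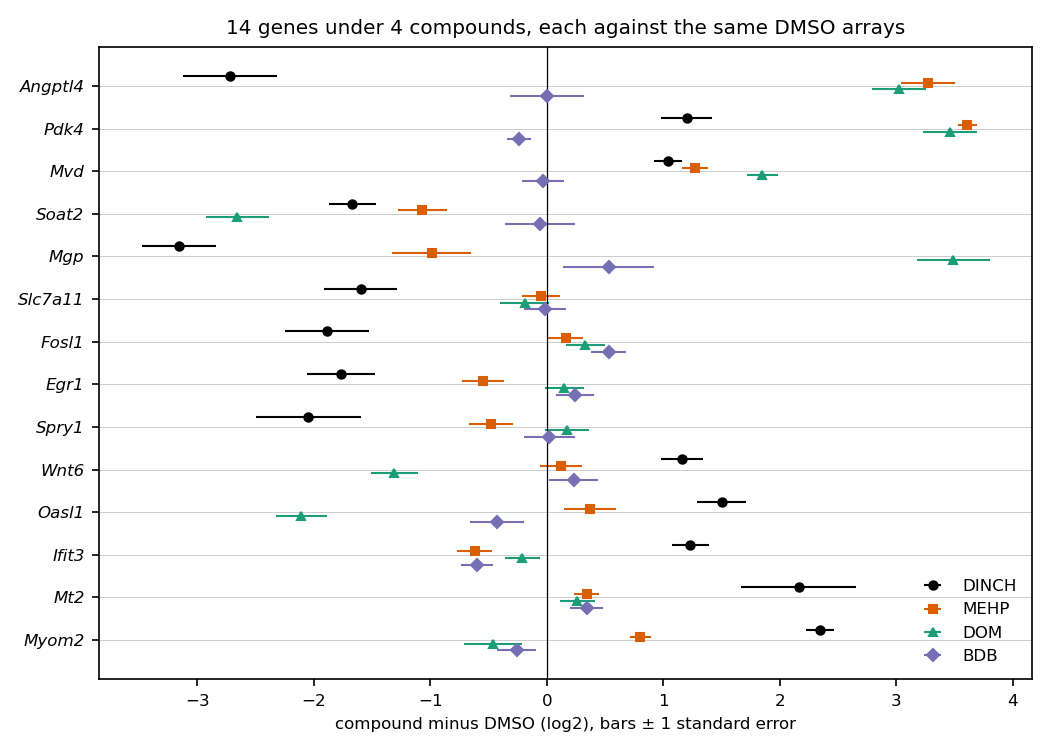
The x axis is the log2 difference of each compound from DMSO and the bars are ± 1 SE, for 14 genes under DINCH, MEHP, DOM and BDB, each from its own comparison with the same 4 DMSO arrays. DINCH lies left of 0 for Angptl4, Mgp, Slc7a11, Fosl1, Egr1 and Spry1, and MEHP and DOM lie right of 0 for Angptl4 and Pdk4.

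Angptl4 had a difference of -5.99 between DINCH and MEHP, -5.74 between DINCH and DOM and -2.72 between DINCH and BDB (SE 0.35, 0.34 and 0.41). Against the shared DMSO arrays its differences were -2.72 for DINCH, 3.27 for MEHP and 3.02 for DOM. Pdk4 was higher under DINCH than under BDB by 1.44 (SE 0.22), and its differences from MEHP and DOM were -2.42 and -2.26 (SE 0.21 and 0.30). Mgp differed by -2.16 from MEHP, -6.65 from DOM and -3.69 from BDB (SE 0.32, 0.29 and 0.37), and DOM differed from DMSO by 3.49. The metallothionein Mt2 was higher than under MEHP, DOM and BDB by 1.82, 1.90 and 1.82 (adjusted p = 0.0313, 0.026 and 0.0314), and Slc7a11 differed by -1.56, -1.41 and -1.58 (adjusted p = 0.00609, 0.0138 and 0.00608). Myom2 was higher by 1.55, 2.81 and 2.60 (SE 0.11, 0.25 and 0.18). DINCH and MEHP could not be separated for Mvd (difference -0.23, 95% interval -0.54 to 0.09) or Pmvk (-0.24, interval -0.58 to 0.11), and DINCH and DOM not for Pmvk (-0.03, interval -0.44 to 0.37). Mvd differed by -0.80 from DOM and by 1.07 from BDB (adjusted p = 0.00653 and 0.00639).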

How the data were processed

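Per the file headers, the authors scanned the arrays and extracted spot intensities with Agilent Feature Extraction 11.5.1.1, which subtracted background and removed spatial trends, and these intensities were deposited linear and unscaled between arrays. A second deposited file holds log2 values that the authors set against the 75th percentile per array and the median per probe; it served as an alternative. Here the log2 of the processed intensity (floor 1) was set relative to the 75th percentile of non-control spots, outlier spots (102 to 175 an array) were dropped, and the spots of each probe were averaged. No spot was saturated. Precision is limited by the number of arrays, since arrays have no read depth. Of 55681 probes 26582 were named through RefSeq accessions, with 20145 symbols, and the other 29099 had no name; 8481 of these were tested.

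Tested probes were those that reached the 20th percentile and stood well above background on all arrays of DINCH or of DMSO. DINCH and DMSO arrays were fitted with limma 3.58.1 in R 4.3.3, with the package data.table (1.17.8), using Benjamini-Hochberg adjustment over 24001 tested probes. A gene took the value of the probe that was brightest on average over all 23 arrays. Of 316 genes with several tested probes and a call, 70 were called on every probe; Wars, Cdc6, Tgfb2 and Serpinf1 were called on 1 of 2. Direct comparisons used the same steps. Promoters were taken from RefSeq, and text processing and figures used Python 3.11.15, pandas 2.3.3 and matplotlib 3.10.9.

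Genes were named by a rule: the 15 largest rises and falls with non-overlapping groups, the 5 largest bounds each way, up to 4 called members of each of 53 gene lists, and a few fixed genes; others are marked. Some genes that the rule named and 1 list are not reported here. The genes, lists and tests were chosen with earlier results of these data known. On simulated data with 200 genes changed by 1 log2 unit, 78.5% were recovered, with 10 probes called falsely, and 98% at 2 log2 units. The simulated noise was independent between probes and arrays, with no shared effect of replicate, slide or row. These rates therefore need not hold for the real arrays. Same-numbered arrays of both groups deviated together (correlations of 0.158 to 0.555 over 22196 probes), which takes the numbers as pairs from the values and not from the labels. Different-numbered arrays gave -0.446 to 0.247, the highest for DINCH replicate 2 and DMSO replicate 3 on a shared slide. Same-numbered arrays shared a slide except for replicate 3, the weakest pair, so number and slide are not separated. The reported values come from the fit without the pairs, and a fit with the number as a block was an alternative. The alternatives were other normalizations, filters, blocks and probe choices, the authors' table, and leaving out arrays or the patch of low spots; the last and the omission of replicate 1 of both groups were chosen after seeing the data.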

Additional observations from a re-analysis of the deposited data

Results flagged for a closer look

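Among 290 groups of 4 arrays of the named genes, 19 had a single array far from the other 3 by the 95% critical gap of Dixon's test. Chance gives about 1 such group in 20. Of the 19, 9 were on DINCH replicate 1, 8 on DMSO replicate 1 and 2 on other arrays.

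On DINCH replicate 1 these were the log2 levels of Spry1 (-2.38), Egr1 (1.68), Fen1 (3.01), Smad7 (-0.78), Fgf7 (1.49) and Col11a1 (0.75), each the lowest of its group, and of Bbof1 (-1.33), Ppargc1a (-1.25) and Irf7 (-1.39), each the highest. On DMSO replicate 1 they were the low values of Mgp (-0.70), Mn1 (-1.33) and Vegfd (0.21) and the high values of Fosl1 (0.13), Utp18 (-3.33), Hprt (5.62), Wars (6.00) and Hspa4l (3.26). The other 2 were Plekhs1 on DINCH replicate 3 (-2.19) and Ppard on DMSO replicate 4 (-2.22), whose spot lay in the patch of low spots.

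Over the 78 tested genes of that patch, DMSO replicate 4 lay below the mean of the other 3 DMSO arrays by a median difference of -3.61, against 0.01 over the tested genes outside it. The cause was not tested. Of the 327 non-control spots there, 19 were marked as outliers by the extraction software. Abl1, Fgfr1, Nampt and Tcf7l2, chosen after their values were seen, measured -1.26, 1.32, -1.13 and -6.21 on this array, and their differences of 1.27, 1.27, 1.27 and 1.6 were not called (adjusted p = 0.398, 0.284, 0.187 and 0.433).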

How the results depend on the processing

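Of 140 named called genes 28 kept the call in all 22 alternatives and none changed direction. The 984 calls by any probe (505 higher, 478 lower, 246 above 2-fold) became 594 (264 higher, 60 above 2-fold) with normexp background correction, 97 (62, 35 and 85) without a filter on dim probes, and 609 (322 higher, 287 lower) with detection on 1 array. Without replicate 1 of both groups they were 558 (277, 281 and 154). Leaving out 1 array gave 571 to 1055 calls, 297 to 553 higher, 274 to 502 lower and 168 to 293 above 2-fold; the lowest were without DMSO replicate 3, except that the lowest above 2-fold, 168, was without DINCH replicate 1, where 334 were higher. With the patch left out 1001 genes were called. With the replicate block 1128 genes were called, and of 950 called on the brightest probe 815 were also called without it; the block ended the call of 2 named genes. Against MEHP 414 became 215 with normexp, 166 without a filter and 336 to 530 without 1 array; against DOM 2651 became 1448 without a filter and 2316 to 2746 without 1 array; against BDB 1187 became 677, 570 and 982 to 1325. Ppara and Pparg, not called, changed sign around 0: Ppara was -0.02 without DMSO replicate 1 or without replicate 1 of both groups (range without 1 array -0.02 to 0.11) and Pparg -0.07 without replicate 1 of both groups (-0.05 to 0.10). Interferon-induced genes called higher numbered 12 with normexp and 3 without a filter, ATF4 targets called lower 13 and 0. The causes were not tested, except that dropping the filter adds dim probes to the adjustment. By construction the normexp setting adds an offset of 50 to every intensity, which shrinks log2 differences of dim genes. Row and treatment, 4 cultures a group and a single cell line limit the comparison.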

Other observations

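The genes in this part were chosen after their values were seen, and each was called with non-overlapping groups. Further genes known to respond to interferons were higher. Ifi27l2a measured 2.61, 2.40, 2.18 and 2.35 under DINCH and 0.88, 1.34, 1.43 and 0.91 under DMSO, a difference of 1.25 (SE 0.16, adjusted p = 0.00363). The probe for Ifit3b, the near-identical copy beside Ifit3, rose by 1.15 (SE 0.13, adjusted p = 0.00346) and may read Ifit3 too. Il15, a cytokine, rose by 0.99 (SE 0.21, adjusted p = 0.0204).

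Nos3, the endothelial nitric oxide synthase, measured 0.54, 0.34, 0.23 and 0.40 under DINCH and -0.97, -0.63, -1.0 and -0.88 under DMSO and rose by 1.25 (SE 0.12, adjusted p = 0.00265). Edn1, the precursor of endothelin, rose by 1.08 (SE 0.18, adjusted p = 0.00856). Ptgds, a prostaglandin D synthase, rose by 1.38 (SE 0.28, adjusted p = 0.0185), and it was above background on 2 DMSO arrays.

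Several genes of ribosome assembly were lower. Rrp12 measured -0.67, -0.92, -0.59 and -0.98 under DINCH and 0.80, 0.03, 0.46 and 0.51 under DMSO (difference -1.24, SE 0.17, adjusted p = 0.00514). The helicase Ddx21 fell by 1.01 (SE 0.15, adjusted p = 0.00611), and Pes1 and Wdr12, partners in a complex that matures the large subunit, fell by 1.03 and 0.92 (SE 0.21 and 0.18). No list of such genes was drawn up, so how many others did not pass is not given.

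Tfrc, the transferrin receptor, measured -1.63, -1.48, -1.59 and -1.19 under DINCH and -0.60, -0.32, -0.29 and -0.07 under DMSO and fell by 1.15 (SE 0.14, adjusted p = 0.00363). Lpl, the lipase that Angptl4 inhibits, fell by 1.06 (SE 0.20, adjusted p = 0.0135). Mat2a, which makes S-adenosylmethionine, fell by 1.11, and Nab2, a corepressor of EGR proteins, by 1.03 (SE 0.24 and 0.23).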
